A study of Mus musculus with 24 samples.

Results

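The aminoacyl-tRNA synthetases are the enzymes that join each amino acid to its transfer RNA. Their 36 genes, of which 20 code for cytosolic and 16 for mitochondrial enzymes, were followed through 4 cell types of mouse bone marrow. The members were chosen by gene symbol: names without a digit, or ending in 1, and the phenylalanine subunits Farsa and Farsb counted as cytosolic, and names ending in 2 as mitochondrial. Gars, Kars and Qars were kept with the cytosolic enzymes, although the Gars and Kars genes also make the mitochondrial enzyme. Of the 36 genes, 35 had at least 1 listed probe, with 77 probes in all, among 19057 named genes on the array. Dars had none.

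Total RNA was read on 24 Illumina mouse WG-6 v2 arrays, 1 colour each. LSK cells lack lineage markers, carry Sca-1 and c-Kit and include the stem cells. The committed L-S-K+ progenitors carry c-Kit but not Sca-1, the Gr1+ fraction is myeloid, and the Ter119+ fraction is erythroid. Each was taken from bone marrow of the inbred strains C57Bl/6 (B6) and DBA2 (D2), so that there were 8 groups with n = 3 arrays in each. No group carries a genetic change or a treatment in the labels, and the age and sex of the mice are not given in the sources used here. Whether the arrays within a group stem from different animals is not stated, so that errors and p-values here reflect only array-to-array spread, which may be technical.

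Each synthetase recognizes its own amino acid and the matching transfer RNAs, and the charged transfer RNAs feed the ribosome. Cells keep separate sets for the cytosol and for mitochondria, whose ribosomes make a few respiratory chain subunits, and both sets are encoded in the nucleus. In mammals several cytosolic synthetases sit in a large multisynthetase complex, held together by the scaffold proteins Aimp1, Aimp2 and Eef1e1. The transcription factor ATF4, which is made when the kinases of the initiation factor eIF2 alpha are active, and the growth regulator Myc are both known to act on cytosolic synthetase genes. In the marrow, progenitors divide often, whereas granulocytes and red cell precursors close down much of their protein synthesis machinery as they mature.

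A probe was called detected at a detection p under 0.01, and a gene was tested if 1 of its probes was detected on all 3 arrays of at least 1 group. Of the 36 synthetase genes, 27 passed (16 cytosolic, 11 mitochondrial), among 7925 genes in all. The other 9 were Dars, Cars, Tars, Yars, Aars2, Hars2, Nars2, Wars2 and Yars2, whose best probe was detected on at most 4 of the 24 arrays. A gene that passed only through the cell type in which it was bright had to differ between cell types, so counts are also given for genes detected on all 24 arrays, which were 13 of the 16 cytosolic but only 4 of the 11 mitochondrial genes. The share of all probes detected on an array ran from 12.6% to 27.4%, and 3 arrays stood apart: D2 LSK replicate 2 (12.6%, with 18 of the 27 genes detected), D2 progenitor replicate 1 (17.5%) and B6 Ter119+ replicate 2. The last of these differed from the other arrays of its group by a median of 0.49 on the log2 scale over the 27 genes, against 0.09 to 0.29 for the remaining 23 arrays. Counts are given below with and without these 3 arrays.

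The mean over the marker genes fixed for each cell type was highest in that cell type, but not every marker was. Of the 7 measured progenitor markers, Mpo, Elane, Prtn3 and Ctsg were highest in progenitors of both strains. Kit and Gata2 were higher in LSK cells of both strains. Of the 9 LSK markers 5 were measured, and Mecom among them had group means of 4.53 to 4.93 throughout. The mean over 4 measured erythroid markers was 12.66 to 13.28 (log2 intensity) on the 6 Ter119+ arrays and 6.44 to 8.57 elsewhere, and that over 8 granulocyte markers was 13.15 to 13.37 on the 6 Gr1+ arrays. The mature fractions also carried signal of other cells. On Ter119+ arrays the granulocyte markers averaged 10.69 to 11.23, against 7.99 to 10.44 in LSK cells and progenitors, with 7 of 8 detected on every array of each group. Within that last range the strains differed: progenitors had 7.99 to 8.13 in B6 and 8.63 to 10.44 in D2. LSK cells had 8.92 to 9.26 in B6 and 8.94 to 10.36 in D2. All 5 measured B cell markers were detected on every Ter119+ array and averaged 9.32 to 9.8, against 5.07 to 6.8 elsewhere. On Gr1+ arrays the 5 monocyte and macrophage markers averaged 5.23 to 5.98, against 4.31 to 4.56 in LSK cells and progenitors, with 4 of 5 detected on every B6 and 3 of 5 on every D2 array. The 5 T and NK cell markers averaged 6.47 to 6.67 on them, against 4.64 to 5.61, but they did not move together. Cd3d, a subunit of the T cell receptor complex, had Gr1+ group means of 7.18 in B6 and 10.35 in D2. It was at most 4.74 in LSK cells and progenitors. Cd3e and Cd3g, subunits of the same complex, had Gr1+ means of 6.48 and 4.86 in B6. In D2 they had 4.76 and 4.32 and were detected on 0 of 3 Gr1+ arrays. Klrd1 had 5.63 and 5.34 in B6 and D2 Gr1+ cells, and at most 4.71 in LSK cells and progenitors. Nkg7 was higher in B6 progenitors (10.45) than in B6 (8.71) or D2 (8.45) Gr1+ cells. The part of such other cells in the synthetase values of any group, or in the strain differences, was not tested. In such bulk samples fewer cells of a type and less RNA per cell cannot be told apart.

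The synthetase genes had a shared order across the cell types: most were brightest in progenitors and dimmest in Gr1+ cells. By group mean, progenitors were the highest of the 4 cell types in both strains for 22 of the 27 genes (12 cytosolic, 10 mitochondrial), an order that 20.7% of all genes tested had. Gr1+ cells were the lowest in both strains for 21 of the 27 (11 cytosolic, 10 mitochondrial), against 29.6% of all genes. Both held for 18 of the 27 (9 and 9), against 11.6% of all genes. The genes without progenitors on top in both strains were Aars, Vars, Hars, Sars2 and Farsa. Aars was highest in Ter119+ cells of both strains, and Vars in Ter119+ cells of B6 and LSK cells of D2. Hars was highest in Gr1+ cells and Sars2 in Ter119+ cells of B6. Hars, Sars2 and Farsa were each detected on all 3 arrays of only 1 group: B6 Gr1+ cells, B6 progenitors and D2 Ter119+ cells. Each passed the filter only through that group. Their group means, 4.33 to 5.65, lie near background, so their order across the cell types is uncertain. The same holds for Eprs, which is counted among the 22 with progenitors on top. It was detected on all 3 arrays only in B6 Ter119+ cells, and its group means were 4.45 to 4.924. In B6 its progenitor mean was 4.915, next to 4.887 in LSK and 4.856 in Ter119+ cells.

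**Figure D1:**
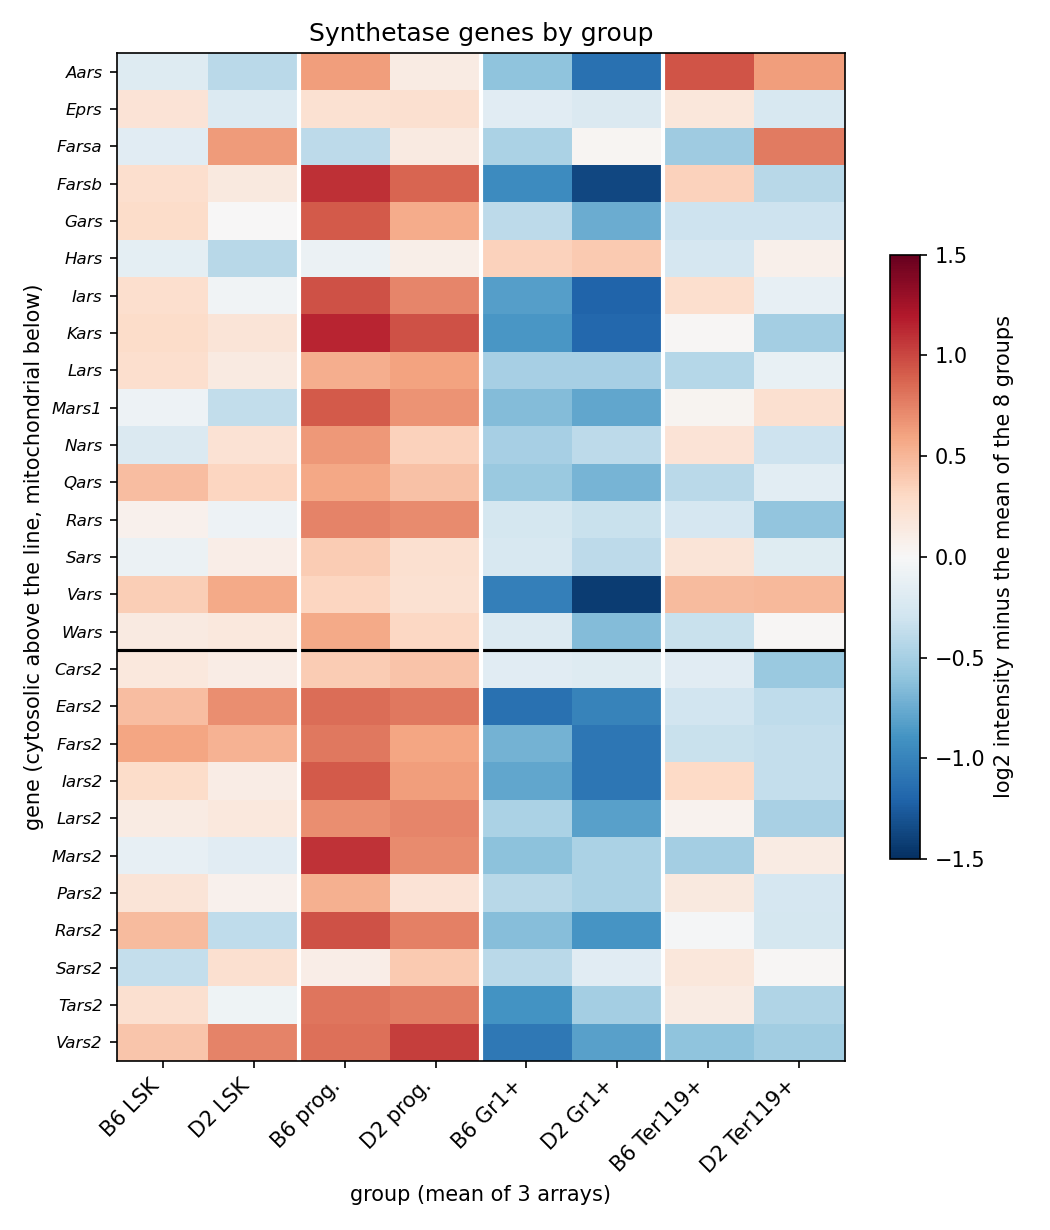
Log2 intensity of each of the 27 synthetase genes (rows, 16 cytosolic above the line and 11 mitochondrial below) in the 8 groups (columns), as the mean of 3 arrays less the gene's mean over the groups; red is above and blue below that mean. The progenitor columns are red and the Gr1+ columns blue for most rows, and Aars, Farsa, Hars and Vars depart from this. Eprs, Farsa, Hars and Sars2 were each detected on all 3 arrays of only 1 group.

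Promoters are shown for the genes with the widest range across the groups that hold at least 1 of the motifs searched. Whether the motifs bear on the levels was not tested. The RefSeq promoter table (build GRCm38.p6) held 27 of the 36 members, 13 cytosolic and 14 mitochondrial. In the 250 bases before each start, both strands were searched for TGATGNAA, the core of the ATF4 amino acid response element, and for CACGTG, the E-box that Myc binds, which share no overlap. TGATGNAA was found in Aars, Gars and Tars, 3 of 13 cytosolic and 0 of 14 mitochondrial genes, and in 3.91% of all 27025 genes in the table. CACGTG was found in Aars, Farsb and Iars, again 3 of 13 cytosolic and 0 of 14 mitochondrial genes, and in 6.86% of all genes in the table. Aars held both. The stretches below run 5′ to 3′ on the strand of the gene, with the matches in capitals (in Aars, the E-box first and then the ATF4 core on the opposite strand); they lie at chr8:111033685-111033784 (plus strand, Aars), chr1:78488898-78488997 (minus strand, Farsb) and chr13:49682016-49682115 (plus strand, Iars). A match is a description of these letters and not evidence of binding.
Aars: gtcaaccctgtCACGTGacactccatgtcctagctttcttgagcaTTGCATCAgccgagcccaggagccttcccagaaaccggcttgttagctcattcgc
Farsb: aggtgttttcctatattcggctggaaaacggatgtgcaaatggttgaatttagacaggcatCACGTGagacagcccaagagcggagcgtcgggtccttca
Iars: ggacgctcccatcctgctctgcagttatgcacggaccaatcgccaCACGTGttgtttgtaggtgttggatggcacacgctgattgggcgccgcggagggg

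The cytosolic members with the widest range include 3 enzymes of the multisynthetase complex. Kars charges lysine transfer RNAs in both compartments. Its log2 intensity was 8.22, 8.2 and 8.42 on the B6 arrays and 8.36, 7.69 and 8.54 on the D2 arrays in LSK cells, and 9.1, 8.94 and 9.41 on the B6 arrays and 8.98, 8.9 and 9.01 on the D2 arrays in progenitors. The Gr1+ values were 7.16, 7.13 and 7.09 on the B6 arrays and 6.73, 6.78 and 6.97 on the D2 arrays, and those of Ter119+ cells 7.9, 7.86 and 8.31 on the B6 arrays and 7.7, 7.42 and 7.36 on the D2 arrays. Progenitors were highest and Gr1+ cells lowest in both strains, and within each strain the progenitor arrays overlapped with those of no other cell type. Kars was 4.22-fold lower in Gr1+ cells than in progenitors (log2 difference -2.08 ± 0.14 SE, limma adjusted p = 4.45e-12), averaged over the strains as are all cell type differences below. It was 2.46-fold lower in Ter119+ cells (-1.3 ± 0.14, adjusted p = 3.69e-08).

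Iars charges isoleucine. Its log2 intensity was 8.23, 8.28 and 8.27 on the B6 arrays and 8.71, 7.09 and 8.07 on the D2 arrays in LSK cells, and 9.15, 8.78 and 8.97 on the B6 arrays and 8.79, 8.71 and 8.72 on the D2 arrays in progenitors. Gr1+ cells gave 6.95, 7.26 and 7.36 on the B6 arrays and 6.96, 6.71 and 6.76 on the D2 arrays, and Ter119+ cells gave 8.45, 8.13 and 8.21 on the B6 arrays and 7.95, 7.81 and 7.9 on the D2 arrays. The lowest LSK value, 7.09, is that of D2 LSK replicate 2, the array with the fewest detected probes. Iars was 3.61-fold lower in Gr1+ cells than in progenitors (-1.85 ± 0.18, adjusted p = 2.15e-09) with no overlap in either strain, and 1.72-fold lower in Ter119+ cells (-0.78 ± 0.18, adjusted p = 0.000616).

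Mars1 charges methionine, the amino acid that starts protein chains. Its log2 intensity was 9.22, 9.36 and 8.97 on the B6 arrays and 9.09, 8.77 and 8.83 on the D2 arrays in LSK cells, and 10.18, 10.19 and 10.19 on the B6 arrays and 10.34, 9.59 and 9.88 on the D2 arrays in progenitors. Mars1 in Gr1+ cells was 8.87, 8.43 and 8.51 on the B6 arrays and 8.66, 8.34 and 8.44 on the D2 arrays, and Ter119+ cells gave 9.49, 8.89 and 9.52 on the B6 arrays and 9.76, 9.58 and 9.16 on the D2 arrays. It had the largest difference between progenitors and LSK cells of the cytosolic genes, 2.03-fold higher in progenitors (1.02 ± 0.15, adjusted p = 8.26e-06), and all progenitor arrays lay above all LSK arrays of their strain. From progenitors to Gr1+ cells it was 2.87-fold lower (-1.52 ± 0.15, adjusted p = 4.31e-09).

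Farsb makes the beta subunit of the cytosolic phenylalanine enzyme, which works as a tetramer with the catalytic alpha subunit made by Farsa. The log2 intensity of Farsb was 9.79, 9.87 and 10.17 on the B6 arrays and 9.77, 9.9 and 9.86 on the D2 arrays in LSK cells, and 10.65, 10.74 and 10.98 on the B6 arrays and 10.49, 10.87 and 10.36 on the D2 arrays in progenitors. Farsb in Gr1+ cells was 8.92, 8.58 and 8.76 on the B6 arrays and 8.16, 8.43 and 8.38 on the D2 arrays, and Ter119+ cells gave 10.2, 10.1 and 9.82 on the B6 arrays and 9.05, 9.34 and 9.45 on the D2 arrays. Its range over the 8 group means, 2.47, was the widest of the called members. It was 4.42-fold lower in Gr1+ cells than in progenitors (-2.14 ± 0.13, adjusted p = 4.27e-13), 2.03-fold lower in Ter119+ cells than in progenitors (-1.02 ± 0.13, adjusted p = 3.05e-07) and 1.72-fold higher in progenitors than in LSK cells (0.79 ± 0.13, adjusted p = 2.44e-05). A second probe of Farsb gave -2.28, -0.91 and 0.95 for the same differences.

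Aars, which charges alanine and works outside the complex, was the called member that went against the rest. Its log2 intensity was 8.65, 9.01 and 8.96 on the B6 arrays and 8.87, 8.35 and 8.77 on the D2 arrays in LSK cells, and 9.85, 9.31 and 9.92 on the B6 arrays and 8.85, 9.32 and 9.39 on the D2 arrays in progenitors. Aars in Gr1+ cells was 8.54, 8.39 and 8.46 on the B6 arrays and 7.69, 8.22 and 7.93 on the D2 arrays, and Ter119+ cells gave 9.87, 10.16 and 10.01 on the B6 arrays and 10.21, 9.38 and 9.48 on the D2 arrays. Ter119+ cells had the highest group mean in both strains, but the Ter119+ and progenitor arrays overlapped in both. Aars was 1.33-fold higher in Ter119+ cells than in progenitors (0.41 ± 0.16, adjusted p = 0.0324) and 3.13-fold higher in Ter119+ than in Gr1+ cells (1.65 ± 0.16, adjusted p = 4.97e-09). The first of these calls was lost without the 3 arrays that stood apart (0.29, adjusted p = 0.118) and without any 1 of B6 progenitor replicate 2 (0.32), D2 progenitor replicate 1 (0.33), B6 Ter119+ replicate 2 (0.38) and D2 Ter119+ replicate 1 (0.28, adjusted p = 0.123). It was also lost with the B6 arrays alone (0.32), the D2 arrays alone (0.51) and array weights (0.23). The second was called in all the alternatives run, at 1.4 to 1.8.

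Vars charges valine and is known, in human cells, to bind elongation factor 1. Its log2 intensity was 9.51, 9.63 and 9.28 on the B6 arrays and 9.68, 9.57 and 9.77 on the D2 arrays in LSK cells, and 9.73, 9.63 and 8.92 on the B6 arrays and 9.57, 9.41 and 9.03 on the D2 arrays in progenitors. On Gr1+ arrays the values were 7.99, 8.19 and 8.06 on the B6 arrays and 7.6, 7.87 and 7.6 on the D2 arrays, and those of Ter119+ cells 9.21, 10.04 and 9.49 on the B6 arrays and 9.7, 9.55 and 9.51 on the D2 arrays. LSK cells, progenitors and Ter119+ cells overlapped, and all 6 Gr1+ arrays lay below every other array. Vars was 2.82-fold lower in Gr1+ cells than in progenitors (-1.5 ± 0.15, adjusted p = 7.82e-09) and 3.24-fold higher in Ter119+ than in Gr1+ cells (1.7 ± 0.15, adjusted p = 1.44e-09), while its differences of progenitors less LSK cells (-0.19 ± 0.15, adjusted p = 0.339) and of Ter119+ cells less progenitors (0.2 ± 0.15, adjusted p = 0.281) did not pass the test.

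**Figure D2:**
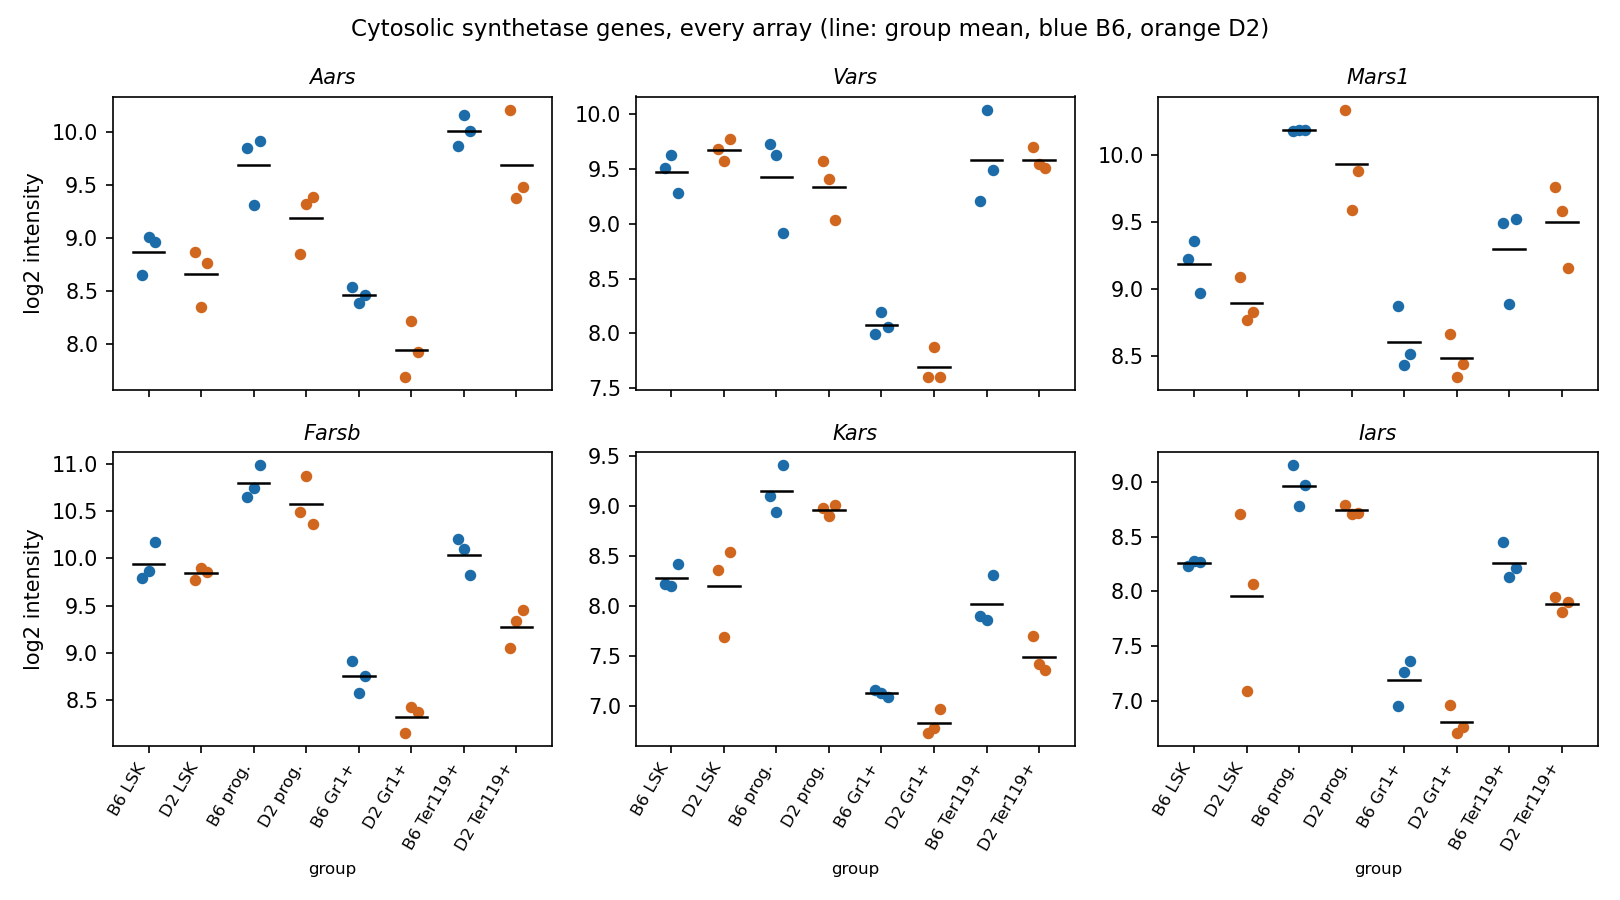
Log2 intensity (vertical axis, own range in each panel) of 6 cytosolic synthetase genes on every array, by group (blue B6, orange D2, line the mean of 3 arrays). Farsb, Kars and Iars are highest in progenitors, Aars reaches 10.21 in Ter119+ cells, and Vars is low only in Gr1+ cells, at 7.6 to 8.19.

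Of the mitochondrial enzymes, Vars2, which charges valine, had the widest range. Its log2 intensity was 7.94, 7.91 and 7.56 on the B6 arrays and 8.05, 8.15 and 8.18 on the D2 arrays in LSK cells, and 8.27, 8.12 and 8.27 on the B6 arrays and 8.35, 8.4 and 8.52 on the D2 arrays in progenitors. Vars2 in Gr1+ cells was 6.47, 6.26 and 6.21 on the B6 arrays and 6.53, 6.58 and 6.6 on the D2 arrays, and Ter119+ cells gave 7.21, 6.23 and 6.9 on the B6 arrays and 6.76, 6.66 and 7.19 on the D2 arrays. In both Gr1+ and Ter119+ cells all arrays lay below all LSK and progenitor arrays of either strain. Vars2 was 3.68-fold lower in Gr1+ cells than in progenitors (-1.88 ± 0.14, adjusted p = 3.38e-11) and 2.82-fold lower in Ter119+ cells (-1.5 ± 0.14, adjusted p = 4.61e-09). The progenitor and Ter119+ arrays of cytosolic Vars overlapped in both strains, and those of Vars2 did not. The difference between the pair of genes was not tested.

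Iars2, the isoleucine enzyme, read 7.94, 8.1 and 8.16 on the B6 arrays and 8.05, 7.73 and 7.92 on the D2 arrays in LSK cells, and 8.75, 8.47 and 8.91 on the B6 arrays and 8.42, 8.4 and 8.42 on the D2 arrays in progenitors. Gr1+ cells gave 6.98, 6.88 and 7.18 on the B6 arrays and 6.86, 6.4 and 6.86 on the D2 arrays, and Ter119+ cells gave 7.94, 8.58 and 7.76 on the B6 arrays and 7.48, 7.48 and 7.33 on the D2 arrays. Progenitors were highest, and Gr1+ cells were 3.25-fold lower (-1.7 ± 0.14, adjusted p = 1.18e-10) with no overlap. The B6 Ter119+ arrays spread from 7.76 to 8.58, the top value being that of replicate 2.

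Ears2 charges glutamate and, in mitochondria, also loads glutamate onto the glutamine transfer RNA. It read 6.18, 6.29 and 6.51 on the B6 arrays and 6.18, 7.07 and 6.43 on the D2 arrays in LSK cells, and 6.73, 6.4 and 7 on the B6 arrays and 6.77, 6.56 and 6.66 on the D2 arrays in progenitors. The Gr1+ values were 4.99, 4.5 and 4.73 on the B6 arrays and 4.45, 4.7 and 5.45 on the D2 arrays, and those of Ter119+ cells 5.59, 5.73 and 5.42 on the B6 arrays and 5.26, 5.6 and 5.6 on the D2 arrays. LSK cells and progenitors overlapped. Ears2 was detected on only 2 of the 6 Gr1+ arrays, so the 3.68-fold lower level there (-1.88 ± 0.17, adjusted p = 1.04e-09) is close to background on 1 side.

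Fars2, the single-chain mitochondrial phenylalanine enzyme, read 10.04, 9.89 and 9.94 on the B6 arrays and 10, 9.93 and 9.74 on the D2 arrays in LSK cells, and 10.08, 10.02 and 10.39 on the B6 arrays and 9.9, 9.93 and 10.07 on the D2 arrays in progenitors. Gr1+ cells gave 8.6, 8.68 and 8.7 on the B6 arrays and 8.3, 8.3 and 8.24 on the D2 arrays, and Ter119+ cells gave 9.48, 8.2 and 9.42 on the B6 arrays and 9, 8.8 and 9.22 on the D2 arrays. All Gr1+ arrays lay below all LSK and progenitor arrays, with a 3.02-fold lower level than in progenitors (-1.59 ± 0.16, adjusted p = 7.57e-09). The low B6 Ter119+ value, 8.2, is that of replicate 2, more than 1 unit under the other arrays of its group.

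Rars2, which charges arginine, read 7.33, 7.22 and 7.29 on the B6 arrays and 7.44, 4.72 and 7.1 on the D2 arrays in LSK cells, and 7.86, 7.57 and 7.86 on the B6 arrays and 7.7, 7.58 and 7.39 on the D2 arrays in progenitors. The Gr1+ values were 6.23, 6.1 and 6.17 on the B6 arrays and 6.01, 5.93 and 5.83 on the D2 arrays, and those of Ter119+ cells 7, 6.55 and 6.82 on the B6 arrays and 6.37, 6.65 and 6.58 on the D2 arrays. D2 LSK replicate 2, at 4.72, lay more than 2 units under the other LSK arrays. Rars2 was 3.07-fold lower in Gr1+ cells than in progenitors (-1.62 ± 0.28, adjusted p = 1.64e-05).

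Mars2, the mitochondrial methionine enzyme, read 6.87, 6.8 and 6.92 on the B6 arrays and 6.99, 6.84 and 6.62 on the D2 arrays in LSK cells, and 8.24, 7.98 and 8 on the B6 arrays and 7.91, 7.64 and 7.53 on the D2 arrays in progenitors. On Gr1+ arrays the values were 6.25, 6.33 and 6.54 on the B6 arrays and 6.38, 6.63 and 6.54 on the D2 arrays, and those of Ter119+ cells 7.18, 5.44 and 6.82 on the B6 arrays and 7.11, 6.92 and 7.31 on the D2 arrays. As with its cytosolic counterpart Mars1, all progenitor arrays lay above all LSK arrays, and the difference of 2.06-fold (1.04 ± 0.19, adjusted p = 0.000139) was the largest of the mitochondrial genes. The B6 Ter119+ value of 5.44 is again that of replicate 2. Mars2 was 2.71-fold lower in Gr1+ cells than in progenitors (-1.44 ± 0.19, adjusted p = 5.88e-07).

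The comparison of progenitors with LSK cells asks how the genes change as multilineage cells become committed. Calls were made where the limma p, adjusted by Benjamini-Hochberg over 7925 genes, was under 0.05. Of the 27 synthetase genes, 15 were called and all were higher in progenitors (9 of 16 cytosolic, 6 of 11 mitochondrial), where 42.6% of all genes tested were called and 21.5% were higher. The median log2 difference was 0.44 for cytosolic, 0.36 for mitochondrial and 0.03 for all genes tested. Of the genes detected on all 24 arrays, 9 of 13 cytosolic and 3 of 4 mitochondrial genes were called. Without the 3 arrays that stood apart 18 genes were called, 17 higher and Farsa lower, and with D2 arrays alone 7 of 23. The count depends on the scaling of the arrays: with 75th percentile scaling it was 6 and with median scaling 0, where the median over all genes shifted from 0.03 to 0.19 and 0.21.

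After Mars1, the largest differences among the cytosolic genes were those of Kars (0.82 ± 0.14, adjusted p = 4.98e-05), Farsb, Rars (0.74 ± 0.14, adjusted p = 0.000222) and Iars (0.74 ± 0.18, adjusted p = 0.00154). The smaller called ones were Aars (0.67 ± 0.16, adjusted p = 0.00163), Gars, the glycine enzyme (0.6 ± 0.14, adjusted p = 0.00153), Nars, the asparagine enzyme (0.5 ± 0.17, adjusted p = 0.0215), and Lars, the leucine enzyme (0.38 ± 0.14, adjusted p = 0.0301). Among the mitochondrial genes Mars2 was followed by Rars2 (0.81 ± 0.28, adjusted p = 0.0211), the threonine enzyme Tars2 (0.69 ± 0.21, adjusted p = 0.0117), Iars2 (0.58 ± 0.14, adjusted p = 0.00143), the leucine enzyme Lars2 (0.57 ± 0.14, adjusted p = 0.00219) and Vars2 (0.36 ± 0.14, adjusted p = 0.0442). Leaving out 1 array at a time cost the call of Vars2 in 14 of 24 fits (highest adjusted p = 0.117), of Lars in 6 (0.0791) and of Nars in 5 (0.0713). In 10 of the 27 genes the progenitor arrays lay above the LSK arrays in both strains, as in 13.3% of all genes.

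Gr1+ cells had lower levels than progenitors for nearly every synthetase gene measured. Of the 27, 25 were called, all lower (14 of 16 cytosolic, 11 of 11 mitochondrial), where 68.7% of all genes tested were called and 39.3% were lower. Hars (0.37 ± 0.2, adjusted p = 0.112) and Farsa (-0.1 ± 0.28, adjusted p = 0.772), neither detected on every array, did not pass the test. The median log2 difference was -1.11 for cytosolic, -1.48 for mitochondrial and -0.13 for all genes tested. All 13 cytosolic and all 4 mitochondrial genes detected on the 24 arrays were called lower. In 23 of the 27 genes the Gr1+ arrays lay below the progenitor arrays in both strains, against 31.5% of all genes. The count was 24 without the 3 arrays that stood apart, 22 with 75th percentile and 20 with median scaling.

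Of the cytosolic genes, Farsb, Kars, Iars and Mars1 fell most. The smallest called differences among those with signal on both sides were those of Sars, the serine enzyme (-0.63 ± 0.14, adjusted p = 0.000276), Wars, the tryptophan enzyme (-0.86 ± 0.15, adjusted p = 1.57e-05), and Nars (-0.95 ± 0.17, adjusted p = 3.55e-05). Eprs, the joint glutamate and proline enzyme, was detected on 3 of 6 progenitor and 0 of 6 Gr1+ arrays (mean log2 intensities 4.92 and 4.49), so its fitted difference (-0.43 ± 0.18, adjusted p = 0.0346) is neither a measured size nor a bound. It was detected on 8 of the 24 arrays and passed the filter only through B6 Ter119+ cells, and its call was lost in 4 fits that left out 1 array (B6 progenitor replicate 3, D2 progenitor replicate 1, B6 Gr1+ replicate 3 or D2 Gr1+ replicate 2; highest adjusted p = 0.139). Of the mitochondrial genes, Vars2, Ears2, Iars2 and Rars2 fell most. The least were Sars2, the serine enzyme (-0.53 ± 0.19, adjusted p = 0.0161), Cars2, the cysteine enzyme (-0.58 ± 0.14, adjusted p = 0.00103), and Lars2 (-1.36 ± 0.14, adjusted p = 9.26e-09). Pars2, the proline enzyme, was detected on 4 of 6 progenitor and 0 of 6 Gr1+ arrays (means 5.13 and 4.31), so its fitted difference (-0.82 ± 0.15, adjusted p = 5.55e-05) is no measured size either. Sars2 was detected on 11 arrays and Pars2 on 12. Sars2 passed the filter only through B6 progenitors, which are on the higher side of this comparison. It was detected on 5 of 6 progenitor and 1 of 6 Gr1+ arrays, so its difference is close to background on 1 side. The Sars2 call was lost without D2 progenitor replicate 1 or D2 Gr1+ replicate 1, at a highest adjusted p of 0.0625.

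In Ter119+ cells the genes were mostly lower than in progenitors as well. Of the 27, 21 were called: 10 cytosolic genes were lower and Aars was higher, and 10 of 11 mitochondrial genes were lower, where 56.3% of all genes tested were called, 32.3% lower and 24% higher. The median was -0.63 for cytosolic, -0.95 for mitochondrial and -0.1 for all genes tested. Of the genes detected on all 24 arrays, 10 of 13 cytosolic and 4 of 4 mitochondrial genes were called lower. Arrays of the 2 cell types did not overlap in either strain for 14 of the 27 genes, all lower, as in 20.6% of all genes. Without the 3 arrays that stood apart 21 were called lower and none higher, the call of Aars being lost and that of Sars gained. The count fell to 8 with 75th percentile and 2 with median scaling, each with none higher.

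The cytosolic genes that fell most were Kars, Rars (-1.15 ± 0.14, adjusted p = 3.83e-07), Gars (-1.04 ± 0.14, adjusted p = 1.29e-06) and Farsb. The least were Nars (-0.55 ± 0.17, adjusted p = 0.00885), Wars (-0.6 ± 0.15, adjusted p = 0.0014) and Mars1 (-0.66 ± 0.15, adjusted p = 0.000641). Sars (-0.3 ± 0.14, adjusted p = 0.0627), Vars, Eprs (-0.27 ± 0.18, adjusted p = 0.205), Farsa and Hars did not pass the test. The mitochondrial genes that fell most were Vars2, Ears2 (-1.15 ± 0.17, adjusted p = 4.6e-06), Mars2 (-1.09 ± 0.19, adjusted p = 4.81e-05) and Fars2 (-1.04 ± 0.16, adjusted p = 9.17e-06), and the least were Pars2 (-0.43 ± 0.15, adjusted p = 0.0209), Cars2 (-0.77 ± 0.14, adjusted p = 8.67e-05), Iars2 (-0.8 ± 0.14, adjusted p = 2.72e-05) and Lars2 (-0.93 ± 0.14, adjusted p = 5.94e-06). The Pars2 call was lost without D2 progenitor replicate 2 or B6 Ter119+ replicate 1 (highest adjusted p = 0.0766), and Sars2 (-0.15 ± 0.19, adjusted p = 0.511) did not pass.

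Between the 2 mature cell types the erythroid fraction had the higher levels. Of the 27 genes, 15 were called, all higher in Ter119+ than in Gr1+ cells (8 cytosolic, 7 mitochondrial), where 58.8% of all genes tested were called and 31.6% were higher. The median was 0.35 for cytosolic, 0.43 for mitochondrial and 0.07 for all genes tested. Of the genes detected on all 24 arrays, 8 of 13 cytosolic and 3 of 4 mitochondrial genes were called. The arrays did not overlap in either strain for 8 of the 27, all higher, as in 20.6% of all genes. Without the 3 arrays that stood apart 20 were called, 19 higher and Cars2 lower. With 75th percentile scaling 7 were called, with median scaling 2, and with array weights 24 (22 higher, Cars2 and Hars lower).

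Vars and Aars led, followed by Farsb (1.12 ± 0.13, adjusted p = 5.43e-08) and Iars (1.07 ± 0.18, adjusted p = 1.39e-05). The smallest called cytosolic differences were those of Sars (0.32 ± 0.14, adjusted p = 0.0441), Qars, the glutamine enzyme (0.35 ± 0.15, adjusted p = 0.0413), Kars (0.78 ± 0.14, adjusted p = 3.94e-05) and Mars1 (0.86 ± 0.15, adjusted p = 3.31e-05). Of the mitochondrial genes Iars2 (0.9 ± 0.14, adjusted p = 5.03e-06), Ears2 (0.73 ± 0.17, adjusted p = 0.000826), Fars2 (0.55 ± 0.16, adjusted p = 0.00572) and Tars2 (0.53 ± 0.21, adjusted p = 0.0379) differed most and Vars2 (0.38 ± 0.14, adjusted p = 0.023) and Lars2 (0.43 ± 0.14, adjusted p = 0.0116) least. Ears2 and Tars2 were each detected on only 2 of 6 Gr1+ arrays, so their differences are close to background on 1 side. Over the alternatives the Tars2 difference ran from 0.05 to 1.01, and its call was lost without background correction. Pars2, detected on 3 of 6 Ter119+ and 0 of 6 Gr1+ arrays, had a fitted difference of 0.39 ± 0.15, adjusted p = 0.0344, which is no measured size. Leaving out 1 array at a time cost the call of Qars in 11 of 24 fits (highest adjusted p = 0.152), of Sars in 10 (0.118), of Pars2 in 6 (0.0982), of Tars2 in 5 (0.114) and of Vars2 in 3 (0.0853). The comparisons that involve progenitors share those 6 arrays, and both that involve Gr1+ cells share theirs.

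**Figure D3:**
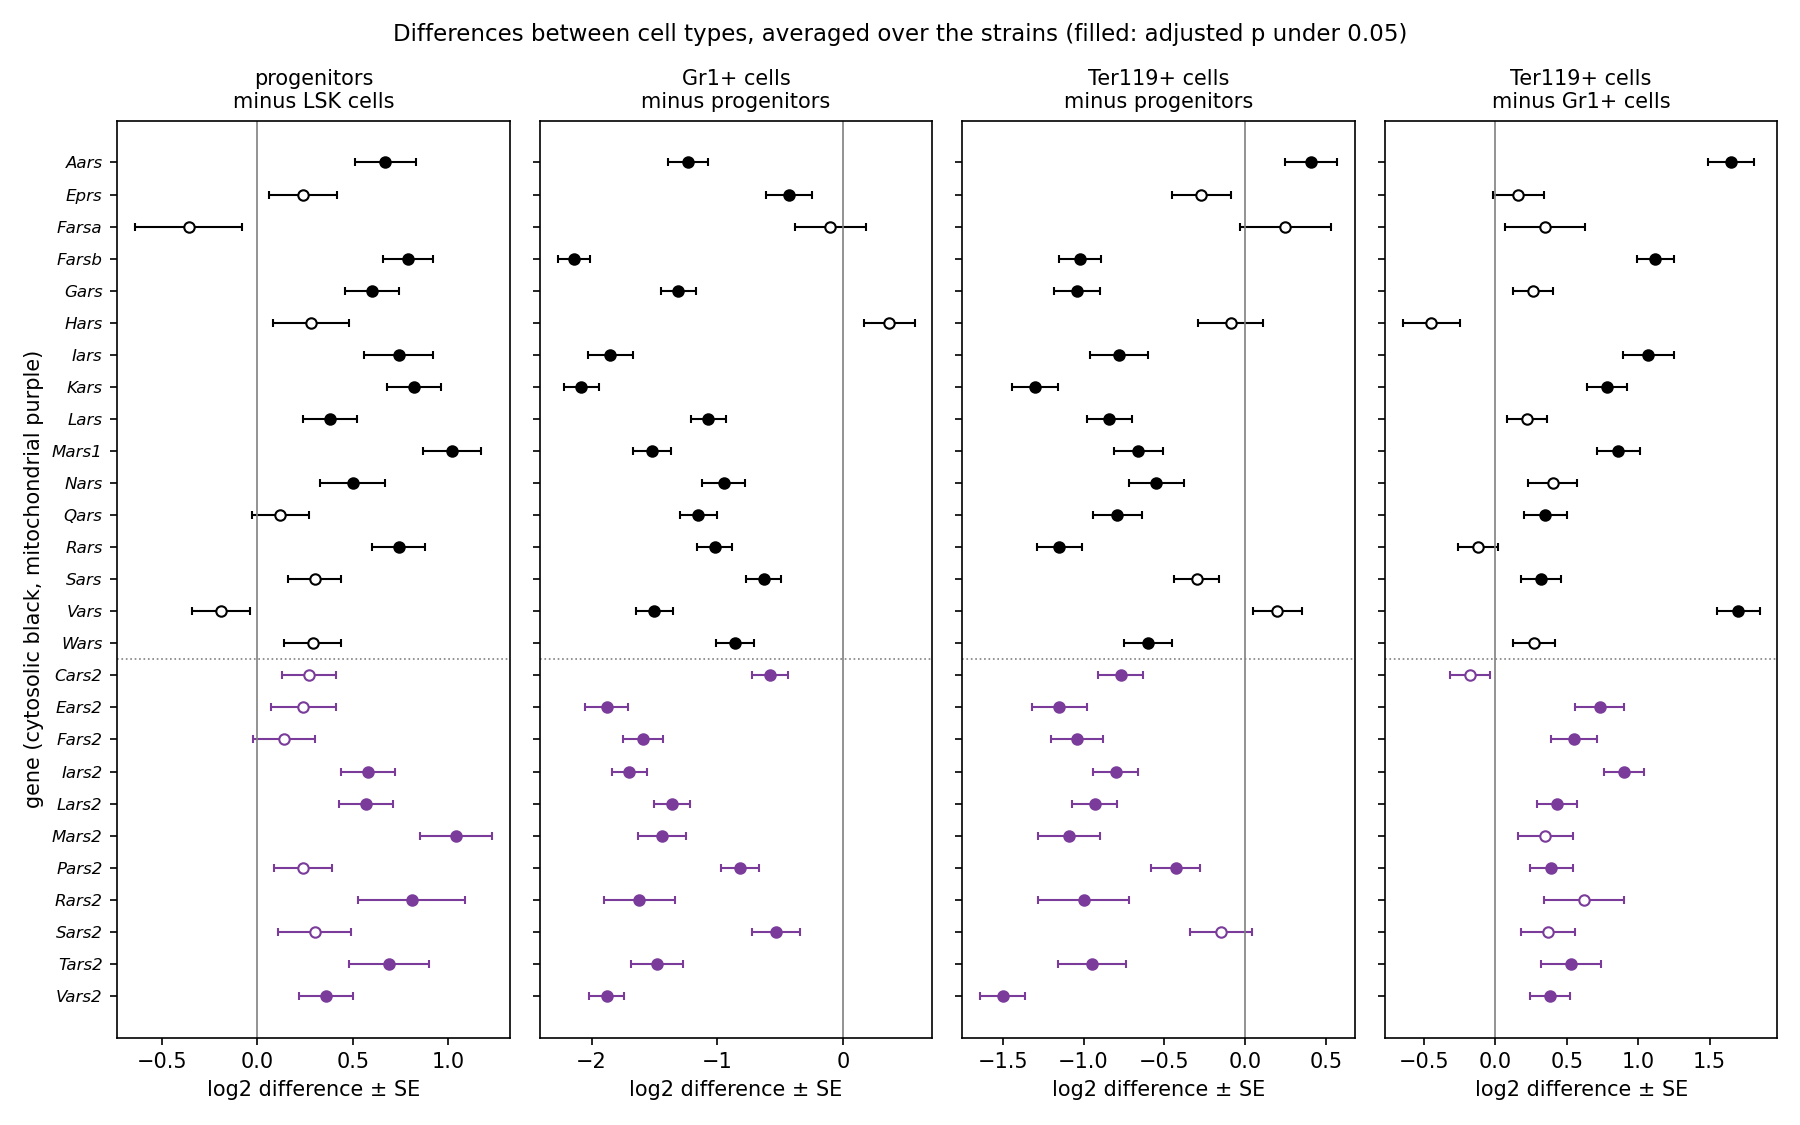
Log2 difference ± SE of the 27 synthetase genes in 4 comparisons of cell types (panels, horizontal ranges differ), averaged over the strains; cytosolic genes are black, mitochondrial purple, and filled points have an adjusted p under 0.05. In the second panel 25 points are filled, all left of 0, and in the third Aars is the filled point right of 0.

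Further probes gave the same directions with few exceptions. For 13 of the 27 genes 15 more probes passed the filter. Their sign was that of the gene's main probe for 15 of 15 in progenitors against LSK cells and in Gr1+ cells against progenitors, and for 14 of 15 in both comparisons of Ter119+ cells, and none was called in the opposite direction. For Gr1+ cells against progenitors the second probes gave -1.37 for Kars, -1.45 for Iars, -1.17 for Mars1, -1.19 for Vars, -1.4 for Iars2 and -1.37 for Mars2, and both further probes of Rars2 gave -1.69 and -1.5. The exceptions were Vars, whose second probe gave -0.11 from progenitors to Ter119+ cells against 0.2 by the main probe, and Wars, with -0.11 against 0.27 from Gr1+ to Ter119+ cells. In progenitors against LSK cells the further probes of Rars2 gave 0.28 and 0.48, below the 0.81 of the main probe, which has the low D2 LSK value. There the second probe gave 0.71 for Wars and 0.9 for Rars. In Ter119+ against Gr1+ cells it gave 1.08 for Vars and 0.19 for Kars. In Ter119+ cells against progenitors the second probes of Gars and Rars gave -0.64 and -1.42. Aars, Farsa, Vars2, Ears2 and Fars2 had no further probe that passed.

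The cytosolic and mitochondrial sets were compared on each array after every gene was centred on its mean over the 24 arrays, so that levels of different probes were not set against each other. The mean over the 16 cytosolic genes was 0.1 ± 0.03 (SD) in B6 and 0.06 ± 0.11 in D2 LSK cells, and 0.58 ± 0.12 and 0.45 ± 0.03 in progenitors. Gr1+ cells had -0.49 ± 0.01 and -0.66 ± 0.06, while Ter119+ cells had 0.01 ± 0.05 and -0.05 ± 0.03. The mean over the 11 mitochondrial genes was 0.22 ± 0.04 and 0.18 ± 0.25 in LSK cells, and 0.72 ± 0.13 and 0.64 ± 0.07 in progenitors. Gr1+ cells had -0.66 ± 0.03 and -0.68 ± 0.06, while Ter119+ cells had -0.1 ± 0.03 and -0.32 ± 0.11. Both sets were thus highest in progenitors and lowest in Gr1+ cells, with no overlap of those cell types.

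The cytosolic less mitochondrial mean changed by -0.04 from LSK cells to progenitors, by 0.26 from progenitors to Gr1+ cells, by 0.36 from progenitors to Ter119+ cells and by 0.1 from Gr1+ to Ter119+ cells. These gaps are descriptions with no test. In B6 the gap was -0.12 ± 0.02 in LSK cells, -0.15 ± 0.03 in progenitors, 0.17 ± 0.03 in Gr1+ and 0.11 ± 0.07 in Ter119+ cells, and in D2 it was -0.12 ± 0.14, -0.18 ± 0.1, 0.02 ± 0.06 and 0.27 ± 0.12. The gap changed with the treatment of dim probes: without background correction that between progenitors and Gr1+ cells turned to -0.13 and that between progenitors and Ter119+ cells shrank to 0.08, and with no detection filter they were 0.02 and 0.19. Only 4 of the 11 mitochondrial genes were detected on all arrays, so part of that set lies near background.

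**Figure D4:**
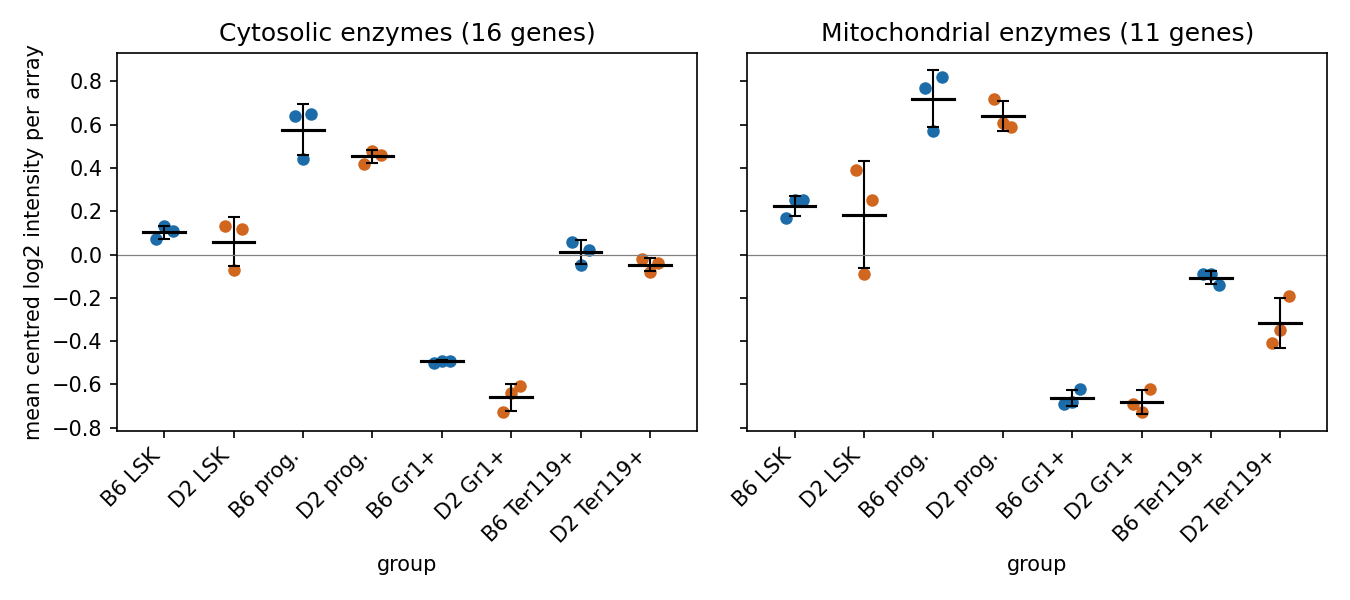
Mean over the 16 cytosolic (left) and 11 mitochondrial (right) synthetase genes of the centred log2 intensity on each array (points, blue B6, orange D2), with the group mean and SD of 3 arrays. Both sets peak in progenitors and are lowest in Gr1+ cells; in D2 Ter119+ cells the cytosolic mean is -0.05 and the mitochondrial -0.32.

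The strains were compared within each cell type. In LSK cells (8.28% of all genes tested called), progenitors (5.68%) and Gr1+ cells (5.75%) limma called 0 of the 27 synthetase genes, and 2, 1 and 3 had an unadjusted p under 0.05. In Ter119+ cells 3 were called, where 16.7% of all genes were: Farsa was higher in D2 (7.99% of all genes were higher), and Farsb and Iars2 were lower (8.71%). Over the 4 cell types together 5 were called, with 20.6% of all genes: Farsa was higher (9.14%), and Aars, Farsb, Kars and Iars2 were lower (11.5%). No strain difference was called as varying between cell types by the limma F test, which called 5.82% of all genes, and 0 of the 27 had an unadjusted p under 0.05 in it. In a limma fit of single probes, some further probes were called lower in D2 where the main probe was not. In LSK cells this held for the second Iars2 probe (-0.89, adjusted p = 0.0435, against -0.17 by the main probe). In Ter119+ cells it held for the second Vars probe (-0.75, adjusted p = 0.0367, against 0.01). There a further Rars2 probe was also called (-0.54, adjusted p = 0.0348), against -0.26 by the main and -0.32 by the remaining probe.

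The 2 subunits of the cytosolic phenylalanine enzyme differed between strains in opposite directions. Farsa read 4.55, 4.87 and 4.68 on the B6 arrays and 6.07, 4.21 and 6.23 on the D2 arrays in LSK cells, and 4.59, 4.3 and 4.55 on the B6 arrays and 4.21, 6.13 and 4.66 on the D2 arrays in progenitors. Gr1+ cells gave 4.39, 4.46 and 4.31 on the B6 arrays and 4.97, 4.84 and 4.87 on the D2 arrays, and Ter119+ cells gave 4.29, 4.18 and 4.52 on the B6 arrays and 5.81, 5.46 and 5.67 on the D2 arrays. It was detected on 9 of the 24 arrays, 7 of them of D2. In Ter119+ cells it was detected on 3 of 3 D2 and 0 of 3 B6 arrays and D2 was higher by at least 2.01-fold (fitted log2 difference 1.32 ± 0.39, adjusted p = 0.0243). D2 Ter119+ cells were also the only group in which all 3 arrays detected it, so it entered the test through the group where it is high. Over the 4 cell types the fitted difference was 0.79 ± 0.2, adjusted p = 0.0052. The D2 LSK and D2 progenitor arrays split: both lowest values, 4.21, are those of the arrays with the fewest detected probes. Without the 3 arrays that stood apart, Farsa was also called higher in D2 LSK cells (1.51, adjusted p = 0.000341) and D2 progenitors (0.96, adjusted p = 0.0219). The D2 progenitor arrays kept in that fit still split, at 6.13 and 4.66, against 4.3 to 4.59 on the B6 arrays. Farsa was detected on only 1 of 3 D2 progenitor arrays, so the D2 progenitor call rests largely on 1 array.

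Farsb, whose values are given above, was 1.69-fold lower in D2 Ter119+ cells (-0.76 ± 0.18, adjusted p = 0.00452), with all D2 arrays below all B6 arrays, and its second probe gave -0.99. Over the 4 cell types it was 1.3-fold lower (-0.38 ± 0.09, adjusted p = 0.00304). Iars2 was 1.58-fold lower in D2 Ter119+ cells (-0.66 ± 0.19, adjusted p = 0.0208) and 1.28-fold lower over the 4 cell types (-0.36 ± 0.1, adjusted p = 0.00915), and its second probe gave -0.94 and -0.58. Aars was 1.31-fold lower in D2 over the 4 cell types (-0.39 ± 0.11, adjusted p = 0.0151), with log2 differences of -0.21, -0.51, -0.51 and -0.32 in LSK cells, progenitors, Gr1+ and Ter119+ cells. Kars was 1.21-fold lower (-0.28 ± 0.1, adjusted p = 0.0489), but its second probe gave -0.04 and the call was lost in 18 of 24 fits that left out 1 array (highest adjusted p = 0.0964).

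Of the Ter119+ calls, that of Farsa was lost without B6 replicate 2 or any D2 replicate (highest adjusted p = 0.0906). It was also lost with no detection filter, no background correction, the series matrix, 75th percentile scaling and median scaling; over all alternatives its log2 difference ran from 0.46 to 1.42 and its adjusted p reached 0.373. That of Iars2 was lost without B6 replicate 2 or D2 replicates 2 or 3 (highest adjusted p = 0.146), while that of Farsb was kept in all 24 such fits. The number called in Ter119+ cells was 1 without B6 replicate 2, D2 replicate 2 or D2 replicate 3, and 5 without B6 replicate 1 or D2 LSK replicate 2. Over the 4 cell types it rose to 8 once B6 Ter119+ replicate 2 was dropped and to 11 once all 3 outlying arrays were, and in LSK cells to 1 without D2 LSK replicate 1 or 2. No probe was checked here for sequence differences between the strains, and Farsa rests on 1 probe.

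**Figure D5:**
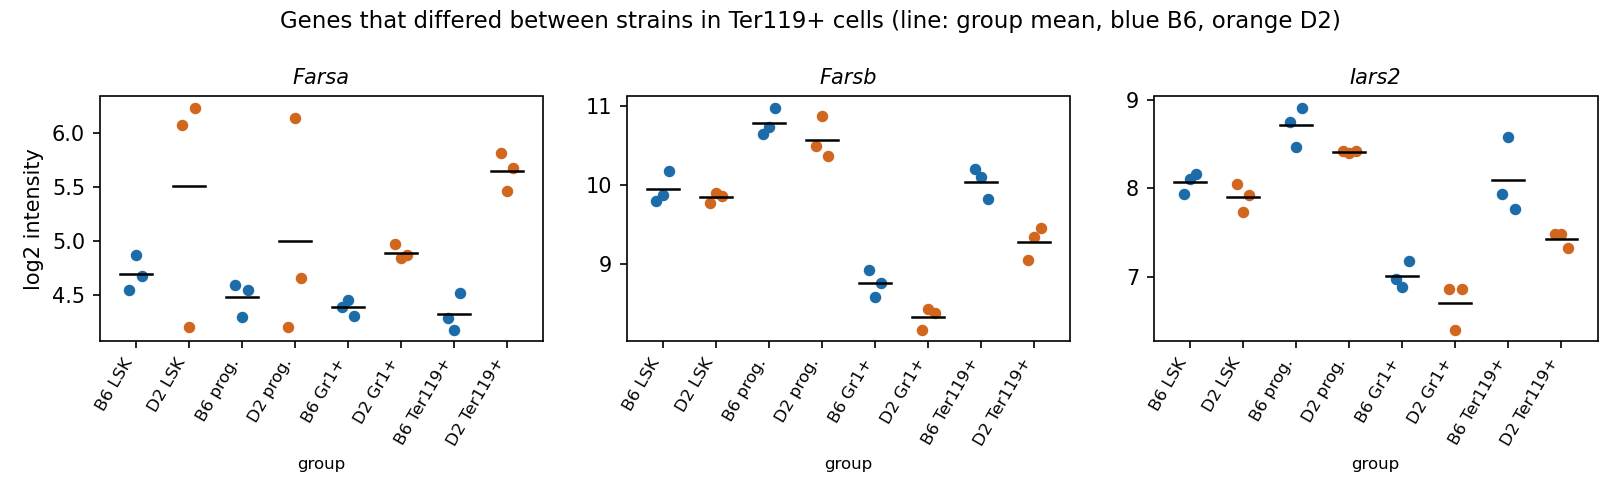
Log2 intensity (vertical axis, own range in each panel) of Farsa, Farsb and Iars2 on every array, by group (blue B6, orange D2, line the mean of 3 arrays). In Ter119+ cells the D2 arrays are above the B6 arrays for Farsa and below them for Farsb and Iars2.

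The gene lists next to the synthetases are given beside the shares of all genes tested, which were 39.3% lower in Gr1+ cells and 32.3% lower in Ter119+ cells than in progenitors, 21.5% higher in progenitors than in LSK cells and 31.6% higher in Ter119+ than in Gr1+ cells, with medians of -0.13, -0.1, 0.03 and 0.07. The scaffold genes of the multisynthetase complex changed in the directions of its enzymes. Aimp1, Aimp2 and Eef1e1 were all lower in Gr1+ cells than in progenitors, at -1.31 ± 0.17, -2.3 ± 0.18 and -2.28 ± 0.24 SE (3 of 3 called, median -2.28). They were all lower in Ter119+ cells too (3 of 3, median -1.15), and 2 of 3, Aimp2 (0.97 ± 0.18) and Eef1e1 (1.41 ± 0.24), were higher in progenitors than in LSK cells. In Ter119+ against Gr1+ cells all 3 were higher (median 0.73). Of the 8 synthetases of the complex 7 were measured, and 7 of 7 were lower in Gr1+ cells (median -1.15), 6 of 7 were lower in Ter119+ cells (median -0.79) and 5 of 7 were higher in progenitors than in LSK cells (median 0.74). In Ter119+ against Gr1+ cells 4 of 7 were higher (median 0.35).

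Genes of the steps next to charging followed the same order in part. The 5 cytosolic elongation factors were lower in Gr1+ cells than in progenitors in 5 of 5 cases (median -1.17). Eef1d led at -1.84 ± 0.14, before Eef1g at -1.49 ± 0.15 and Eef2 at -1.17 ± 0.2. In Ter119+ cells 4 of 5 were lower than in progenitors (median -0.74). The median difference of the 5 factors between progenitors and LSK cells was 0.04, next to 0.03 for all genes. In Ter119+ against Gr1+ cells 3 of 5 were higher (median 0.59), led by Eef1d (1.55 ± 0.14). Of 9 mitochondrial translation factors 8 were lower in Gr1+ cells than in progenitors (median -0.98), led by Tufm (-1.96 ± 0.14), Tsfm (-1.62 ± 0.16) and Gfm2 (-1.26 ± 0.13). In the other comparisons 5 of 9 were lower in Ter119+ cells than in progenitors (median -0.55), 6 were higher in Ter119+ than in Gr1+ cells (median 0.42) and 4 were higher in progenitors than in LSK cells (median 0.21). Among all genes these shares were 39.3% for the first comparison and 32.3%, 31.6% and 21.5% for the others.

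Of 14 other genes of transfer RNA charging, 10 passed the filter. In Gr1+ cells 9 of the 10 were lower than in progenitors (median -0.92, with 39.3% of all genes lower), led by the editing-protein gene Aarsd1 (-1.45 ± 0.19), the D-aminoacyl-tRNA deacylase Dtd1 (-1.31 ± 0.17) and Gatb (-1.24 ± 0.2), a subunit of the enzyme that turns glutamate into glutamine on mitochondrial transfer RNA. Sephs2, which makes the selenium donor for selenocysteine, was higher (0.82 ± 0.17). In Ter119+ cells 6 of 10 were lower than in progenitors (median -0.48, with 32.3% of all genes lower), led by Aarsd1 (-1.24 ± 0.19), Gatb (-1.11 ± 0.2) and Dtd1 (-0.98 ± 0.17). In Ter119+ against Gr1+ cells Qrsl1, another subunit of that enzyme, (1.02 ± 0.19) and Trmu (0.55 ± 0.19) were higher and Sephs2 (-1.16 ± 0.17) lower, and 2 of 10, Aarsd1 (0.72 ± 0.19) and Prorsd1 (0.67 ± 0.23), were higher in progenitors than in LSK cells, a share near the 21.5% of all genes.

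The ATF4 response genes outside the synthetases had no common direction. Of 30 listed, 20 passed the filter. In Gr1+ cells against progenitors 8 were higher and 7 lower (median 0.28), where 68.7% of all genes were called and 39.3% were lower: Cebpb (4.12 ± 0.19), Nupr1 (2.81 ± 0.18) and Chac1 (1.69 ± 0.13) rose, and Aldh18a1 (-2.41 ± 0.26), asparagine synthetase Asns (-2.2 ± 0.21) and Shmt2 (-2.1 ± 0.11), which make amino acids or one-carbon units, fell with the transfer RNA synthetases. In progenitors against LSK cells 7 were higher, led by Asns (2.57 ± 0.21), Mthfd2 (1.2 ± 0.14) and Aldh18a1 (1.15 ± 0.26), and 5 lower, with 42.6% of all genes called and 21.5% higher, led by Vldlr (-3.51 ± 0.13), Trib3 (-3.09 ± 0.15) and Slc38a2 (median 0.11). In Ter119+ cells against progenitors 8 were higher and 8 lower (median 0.16), against 24% and 32.3% of all genes: Slc38a2 (1.38 ± 0.16), Cebpb (1.13 ± 0.19) and Atf4 itself (1.06 ± 0.19) led the first, and Phgdh (-1.53 ± 0.19), Aldh18a1 (-1.34 ± 0.26) and Shmt2 (-1.19 ± 0.11) the second. In Ter119+ against Gr1+ cells 7 were higher and 7 lower (median 0), where 58.8% of all genes were called and 31.6% were higher, led by Asns (1.37 ± 0.21) and Cebpb (-2.99 ± 0.19). Chac1 and Vldlr were each detected on only 8 of the 24 arrays and lay near background on the rest. In Gr1+ cells Chac1 was lower in D2 than in B6 (-1.86 ± 0.18, limma adjusted p = 4.47e-08), so its strain average describes neither strain.

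Of the 4 eIF2 alpha kinases 2 were measured. Eif2ak1, the heme-regulated kinase of erythroid cells, was higher in Ter119+ cells than in progenitors (2.19 ± 0.27) and than in Gr1+ cells (1.85 ± 0.27), and higher in progenitors than in LSK cells (0.97 ± 0.27). Eif2ak2, the kinase that senses double-stranded RNA, was higher in Gr1+ cells than in progenitors (0.78 ± 0.25), and lower in progenitors than in LSK cells (-0.74 ± 0.25) and in Ter119+ than in Gr1+ cells (-0.89 ± 0.25).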

How the data were processed

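Total RNA was labelled with biotin and hybridized to bead arrays, per the labels' protocols, and read with GenomeStudio, per the submitters' processing notes (its version is not given in the sources used here). The authors deposited raw bead intensity (67.9 to 46120) for 45281 probes. The deposited fraction under the p-value heading rises with brightness, so 1 minus it was taken as the detection p. The deposited series matrix holds log2 values that differ by at most 0.00113 from quantile-normalized log2 raw intensity. It served as an alternative, and 24 call columns were not used.

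Intensities were background-corrected, quantile-normalized and put on the log2 scale with neqc of limma 3.58.1 (R 4.3.3; offset 16, negative controls inferred from the detection p). Probes were named through the platform annotation, in which 34885 had 1 symbol, 18 had several and 10378 were not listed. The detection filter kept 12668 probes, and each of 7925 genes was represented by its kept probe with the highest mean. A single linear model with 8 group means (16 residual and 6.74 prior degrees of freedom) gave all contrasts, with Benjamini-Hochberg adjustment over 7925 genes. Dixon's test was not applied to groups of 3. On simulated data with 200 changed genes of 7925, 92% of 2-fold changes were recovered for progenitors against LSK cells and 89% for Gr1+ cells against progenitors. Each simulation also gave 12 false calls. In the data far more genes were called in these comparisons, 42.6% and 68.7%, so the simulated shares do not give the recovery in the data.

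The genes given with array values were those with the widest range of group means, 6 per set, among the called members, and Farsa for its strain difference. The others named were those with the largest and smallest called differences in each comparison and the exceptions. A fold for a gene undetected on all arrays of 1 side is a lower bound against the higher of its own signal and the dimmest detected probe. The members and lists were chosen with earlier results of these data known. The number of arrays limits the precision. Alternatives were the background correction, scaling, filter, probe rule, replicate block, variance model, array weights, single strains and leaving out arrays.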

Additional observations from a re-analysis of the deposited data

How the results depend on the processing

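Of 84 called synthetase results, 24 kept their call in every alternative run, 60 lost it in at least 1, and 0 reversed. Of the 25 genes called lower in Gr1+ cells than in progenitors, 19 lost the call in none. Median scaling left 0 calls for progenitors against LSK cells, 2 for Ter119+ cells against progenitors, 2 for Ter119+ against Gr1+ cells and 0 for the strains in Ter119+ cells. The 75th percentile left 6, 8, 7 and 0. These scalings moved the median strain difference of all genes to -0.91 and -0.67 in LSK cells, -0.45 and -0.38 in progenitors and -0.41 and -0.22 in Ter119+ cells. With no detection filter 1 strain call arose in LSK cells and 1 in progenitors, and with only the groups compared 1 arose in Gr1+ cells and the 3 in Ter119+ cells fell to 1, with Farsb and Iars2 lost. Array weights gave 24 calls for Ter119+ against Gr1+ cells and strain calls of 2, 1, 2 and 12 in LSK cells, progenitors, Gr1+ and Ter119+ cells, 12 over the 4 cell types and 3 by the F test. Leaving out the 2 arrays with the fewest detected probes gave strain calls of 1, 1 and 7 in LSK cells, progenitors and Ter119+ cells. Leaving out the 3 arrays that stood apart, chosen after seeing the data, gave 2 in LSK cells, 1 in progenitors and 11 over the 4 cell types. D2 arrays alone gave 7 for progenitors against LSK cells. The cause of these moves was not tested.

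The gap between the cytosolic and mitochondrial means also moved. Without background correction, and with the series matrix, it was 0.08 for progenitors against LSK cells, -0.13 for Gr1+ cells against progenitors, 0.08 for Ter119+ cells against progenitors and 0.21 for Ter119+ against Gr1+ cells. Median and 75th percentile scaling gave 0.14 for progenitors against LSK cells. For Gr1+ cells against progenitors it was 0.02 with no filter, 0.17 with the looser and 0.14 with the stricter filter and 0.18 in D2 alone. For Ter119+ cells against progenitors it was 0.19 with no filter, 0.23 in B6 alone and 0.56 in D2 alone. For Ter119+ against Gr1+ cells it was 0.25 with the stricter filter, -0.02 in B6 alone and 0.38 in D2 alone, and for progenitors against LSK cells 0.05 with the stricter filter.

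With 1 array left out at a time, the gap ran from -0.08 to 0.03, 0.09 to 0.28, 0.25 to 0.39 and 0.06 to 0.16 for the 4 comparisons in the order of the report. The counts ran from 12 to 16, 23 to 26, 20 to 22 and 12 to 17, and the strain counts from 0 to 1 in LSK cells, 1 to 5 in Ter119+ cells and 4 to 8 over the 4 cell types, with 0 in progenitors, Gr1+ cells and the F test. With the replicate block the counts were 15, 25, 21 and 17, and the strain counts 0, 0, 0, 4 and 5 with 0 by the F test. Over 84 same-numbered pairs the correlation of deviations ran from -0.383 to 0.364 (median 0.0795, 35 over 0.1), against a median of -0.0265 over 168 pairs of other numbers (32 over 0.1), and 13 of 24 arrays correlated best with their own number. This is a hint from the data only. Not every same-numbered pair was over 0.1 and no label ties a number to a shared animal or batch, so no pairing was assumed.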
